A study of Caenorhabditis elegans with 6 samples.

Results

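The genes described here are the lysozymes, saposin-like proteins, antibacterial factors and infection response genes of Caenorhabditis elegans, taken as all genes whose single symbol starts with spp-, lys-, ilys-, abf- or irg-. On the array 47 such genes had a probe set of their own, out of 17118 genes measured. They comprised 18 spp, 10 lys, 6 ilys, 5 abf and 8 irg genes, and each was read by its brightest probe set over the 6 arrays. The current gene table (WBcel235) lists 60 genes with these prefixes. The 13 others were not analysed here, among them spp-3 and spp-5, and 6 probe sets shared with another gene were not used.

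Whole N2 larvae labelled as L2 were profiled on 6 Affymetrix arrays, 3 for each group. The tested larvae ate HT115 bacteria carrying the L4440 vector with an insert against nhr-23, placed by the labels in the part encoding its ligand-binding domain. The control larvae ate HT115 bacteria carrying L4440 without that insert, which the labels describe as making a short nonspecific double-stranded RNA, so both groups shared the strain, the bacterium and the vector backbone. Both were plated as synchronized L1 larvae and collected after 21 hr at 20 C on 2% agarose. The titles call the samples biological replicates and say no more about separate cultures, so the p-values measure the spread between these samples, which may be partly technical. In whole larvae, fewer cells of a type and less RNA per cell cannot be told apart.

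C. elegans lives on bacteria, and its intestine and pharynx secrete proteins that break them down or hold infection in check. Lysozymes cut the peptidoglycan of the bacterial wall: the lys genes encode a type that resembles those of protists, and the ilys genes the type common to invertebrates. Saposin-like proteins, the spp genes, share a compact fold held by disulphide bonds, and several of them open pores in bacterial membranes. The abf genes encode small defensin-like antibacterial peptides, and the irg genes were named because infection induces them, many of them under the p38 kinase PMK-1 or the bZIP factor ZIP-2. NHR-23 is a nuclear hormone receptor known for driving the molting cycle, mainly in the epidermis.

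The target of the RNAi was read by 2 probe sets, which moved in opposite directions. The first gave 7.67, 7.47 and 7.52 log2 units in the arrays labelled nhr-23 RNAi (replicates 1, 2 and 3), against 8.27, 8.12 and 7.74 in controls. The second gave 8.76, 9.61 and 8.76 in the RNAi-labelled arrays, against 6.60, 6.56 and 5.80 in controls. Neither set of values overlapped between groups. The first probe set differed by -0.49 log2 and the second by 2.72 log2, and which part of the gene each one reads is not known here, so every direction below is that of the arrays as labelled.

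Array medians lay between 5.12 and 5.18, and arrays correlated with each other at 0.985 to 0.997. Arrays with the same replicate number deviated together from their group means, and replicate 3 stood apart from replicates 1 and 2 in both groups for a number of genes. Each result is therefore given by replicate number. All values are log2 probe set values as the authors deposited them. Brightness depends on the probes, so values are compared between arrays for 1 gene and not between genes.

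One gene of the 47, the saposin-like gene spp-13 (F08F1.6, chromosome X), was lower with nhr-23 RNAi in a test across the whole array, and only with the replicate number as a block. Its values were 5.88, 6.31 and 4.67 in the RNAi-labelled arrays of replicates 1, 2 and 3, against 7.81, 7.67 and 6.36 in the controls of the same numbers. All 3 RNAi-labelled arrays lay below all 3 controls, and replicate 3 was the lowest array of each group. The means were 5.62 ± 0.85 in RNAi-labelled arrays and 7.28 ± 0.80 in controls (SD, n = 3 each), a log2 difference of -1.66 (SE 0.52, 95% interval -2.91 to -0.42). This was 3.17-fold lower in the RNAi-labelled arrays. Within the pairs of replicates 1, 2 and 3 the difference was -1.93, -1.36 and -1.70 log2.

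With the replicate number as a block, spp-13 passed the test over all 22548 probe sets (limma, adjusted p = 0.0457, SE 0.12). Without the block it did not (limma, unadjusted p = 0.0162, adjusted p = 0.993). The replicate numbers were taken to pair the arrays from these same values, and not from the labels. The blocked call is therefore not independent of that choice. Between the replicate 2 arrays, deviations from group means correlated at 0.167 over all probe sets. Without the block 0 of 47 members passed, as did 0% of all genes, whereas 1 of 47 passed with the block against 0.00584% of all genes, that is, spp-13 was the one gene called of the 17118 when each is read by its brightest probe set. The blocked call was lost without the replicate 1 pair (limma, adjusted p = 0.550, difference -1.53 log2) and was kept without the replicate 2 pair (limma, adjusted p = 0.00152) or the replicate 3 pair (limma, adjusted p = 0.0258). These blocked fits with a pair left out were added after the data were seen and rest on fewer arrays. Leaving out single arrays in the fit without the block, the difference ran from -2.12 log2 without control replicate 3 to -1.19 log2 without RNAi replicate 3. A difference of at least 2-fold was found for 1 of 47 members, against 0.234% of all genes.

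**Figure D1:**
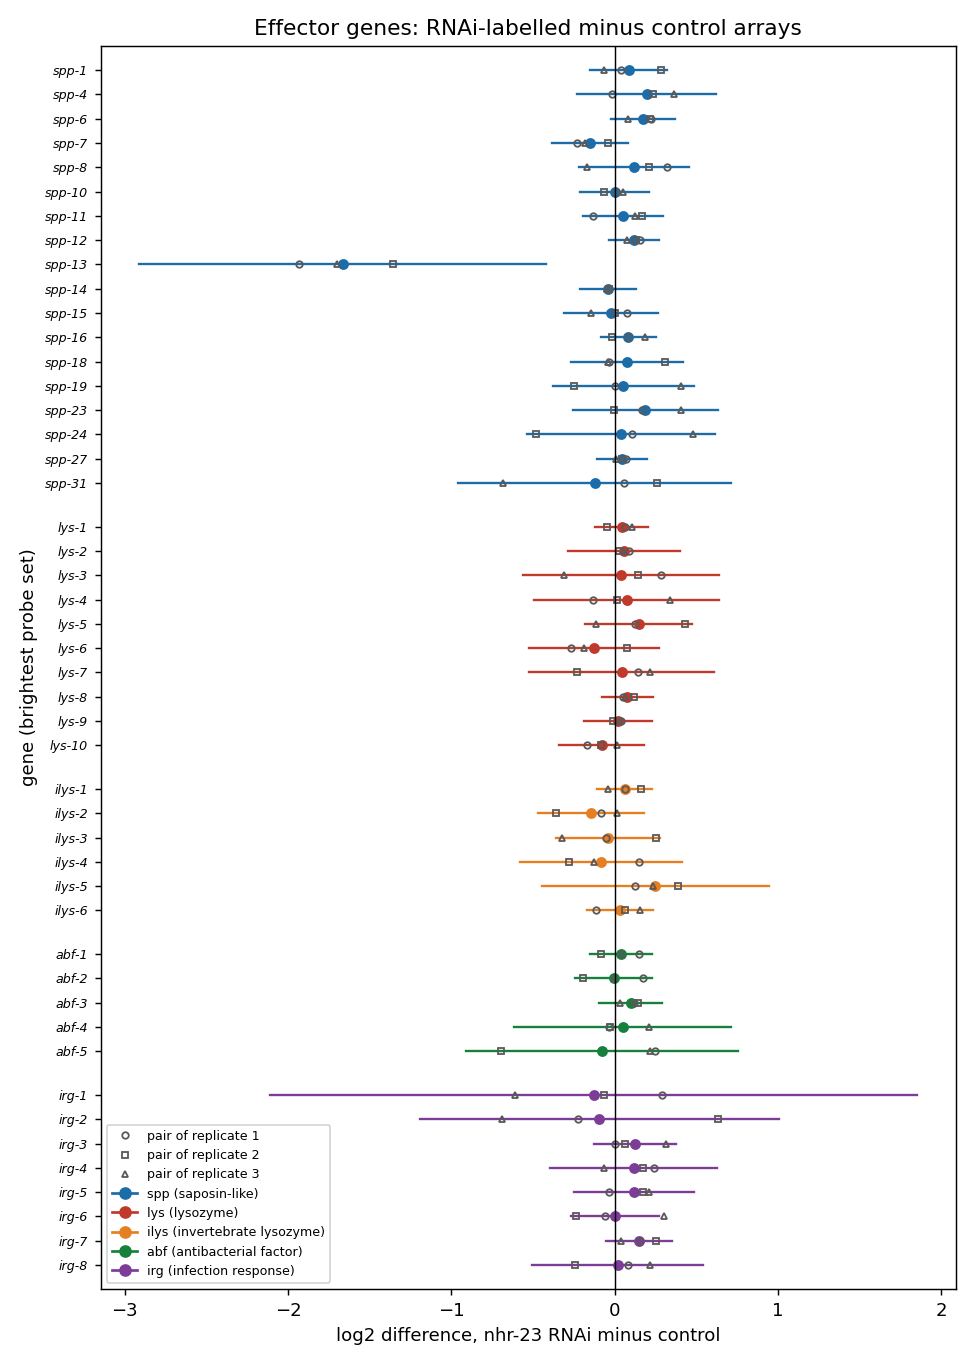
Log2 difference between nhr-23 RNAi and control arrays for each of the 47 genes, grouped by family from top to bottom; filled points are the differences of means with their 95% intervals from limma without the replicate block, and open symbols are the differences within the 3 same-number pairs. The interval of spp-13, from -2.91 to -0.42, is the one that does not reach 0, and irg-1 has the widest interval.

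None of the other 46 genes passed the test in either fit, and their group means differed by at most 0.25 log2. Their differences ran from -0.15 log2 for spp-7 to 0.25 log2 for ilys-5. For 30 of the 47 genes the 95% interval of the difference lay within 0.5 log2 of 0, and for 44, all but spp-13, irg-1 and irg-2, it lay within 1 log2. At an unadjusted p under 0.05 limma gave 1 of 47 members without the block, spp-13, against 3.62% of all genes. With the block it gave 2 of 47, spp-13 and ilys-5, against 5.9% of all genes, a share close to that of genes at large. The median difference was 0.04 log2 over the 47 genes and 0.02 log2 over all genes, and 32 of 47 were higher in the RNAi-labelled mean, against 55.7% of all genes.

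Small differences in 1 direction were seen in some members, in shares not far from those of all genes. Of 47, 9 were higher in the RNAi-labelled array of all 3 pairs, against 16.8% of all genes, and 3 were lower in all 3, against 10.7%. The 3 lower ones were spp-13, spp-7 and spp-14. The groups did not overlap with RNAi higher in 5 of 47 genes, irg-7, lys-8, spp-6, spp-12 and spp-27, against 6.49% of all genes, and with RNAi lower in spp-13 alone, against 2.99%. Of those higher, spp-6, spp-12 and spp-27 were among the 11 members whose mean lay in the dimmest 25% of probe sets, below 3.63 log2, where signal over background is not known.

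Apart from spp-13, none of the 18 saposin-like genes passed the test. The pore-forming caenopore gene spp-1 gave 9.67, 9.95 and 9.64 in RNAi-labelled arrays, against 9.63, 9.66 and 9.71 in controls, a difference of 0.09 log2 (SE 0.10, 95% interval -0.15 to 0.32). A second, dimmer spp-1 probe set differed by 0.005 log2. The groups overlapped for both.

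The prosaposin-like gene spp-10 gave 10.49, 10.32 and 10.32 in RNAi-labelled arrays and 10.48, 10.38 and 10.27 in controls, with a difference of -0.001 log2 (95% interval -0.21 to 0.21). Its 2 other probe sets differed by -0.03 and -0.002 log2. The brightest spp probe set was that of spp-14, with 11.62, 11.68 and 11.72 in RNAi-labelled arrays and 11.66, 11.72 and 11.77 in controls. It differed by -0.04, -0.03 and -0.05 log2 in the 3 pairs, each smaller than the SE of 0.07.

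The largest positive differences of the family were those of spp-4 and spp-23, and neither passed the test. Values of spp-4 were 9.20, 9.31 and 8.95 in RNAi-labelled arrays and 9.21, 9.07 and 8.58 in controls, and its difference of 0.20 log2 was 0.01 log2 without control replicate 3. Values of spp-23 were 10.04, 9.49 and 9.74 in RNAi-labelled arrays and 9.87, 9.50 and 9.33 in controls, and its difference of 0.19 log2 was 0.05 log2 without RNAi replicate 1. With whole pairs left out in turn, spp-4 differed by 0.11 to 0.30 log2 and spp-23 by 0.08 to 0.29 log2, the lowest value of each being that without replicate 3. The values of spp-7, 4.51, 4.64 and 4.36 in RNAi-labelled arrays against 4.75, 4.67 and 4.54 in controls, differed by -0.15 log2 (SE 0.10), and the groups overlapped. Of the 18 spp genes 12 had a higher mean with RNAi and 6 a lower one, with a median of 0.05 log2.

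None of the 10 lys genes passed the test between the groups. The lys-1 probe set gave 11.56, 11.48 and 11.57 in RNAi-labelled arrays and 11.50, 11.53 and 11.46 in controls, a difference of 0.04 log2 (95% interval -0.12 to 0.21). The lys-8 probe set gave 11.30, 11.37 and 11.37 in RNAi-labelled arrays and 11.25, 11.25 and 11.30 in controls, a difference of 0.08 log2 (95% interval -0.08 to 0.24). In lys-8 the groups did not overlap, but the interval of their difference includes 0.

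The genes lys-7 and lys-4 had a wider range between replicate numbers than between groups. For lys-7, a lysozyme gene known for its part in resistance to pathogens and for its control by DAF-16, values were 9.38, 8.81 and 9.72 in RNAi-labelled arrays and 9.23, 9.04 and 9.50 in controls. In both groups replicate 2 was the lowest array and replicate 3 the highest. The groups differed by 0.04 log2, by -0.16 log2 without RNAi replicate 3 and by 0.29 log2 without RNAi replicate 2. For lys-4 values were 11.87, 11.60 and 11.41 in RNAi-labelled arrays and 12.00, 11.59 and 11.08 in controls. Here replicate 1 was the highest and replicate 3 the lowest in both groups, and the groups differed by 0.07 log2, or by -0.16 log2 without control replicate 3. Of the 10 lys genes 8 had a higher mean with RNAi and 2 a lower one, with a median of 0.04 log2, -0.01 log2 without RNAi replicate 3.

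Among the invertebrate-type lysozymes ilys-5 had the largest positive difference of the 47 genes, and it did not pass the test. Its brightest probe set gave 11.63, 11.67 and 10.87 in RNAi-labelled arrays and 11.51, 11.28 and 10.63 in controls. Replicate 3 was lowest in both groups, and the groups overlapped, but each RNAi-labelled array lay above the control of its number, by 0.12, 0.39 and 0.24 log2. The means, 11.39 ± 0.45 in RNAi-labelled arrays and 11.14 ± 0.46 in controls (SD, n = 3 each), differed by 0.25 log2. Limma gave an unadjusted p of 0.423 without the block and 0.0329 with it, and the adjusted p with the block was 0.796. The difference was -0.01 log2 without control replicate 3 and 0.51 log2 without RNAi replicate 3. The 2 other ilys-5 probe sets differed by 0.23 and 0.20 log2. All 3 carry suffixes that Affymetrix gives to probe sets matching more than 1 transcript, so these may not be 3 separate readings.

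The infection-inducible lysozyme gene ilys-3 gave 4.52, 4.77 and 4.25 in RNAi-labelled arrays and 4.57, 4.52 and 4.57 in controls, and did not differ beyond its spread (-0.04 log2, 95% interval -0.36 to 0.28). Its neighbour ilys-2 gave 3.08, 2.83 and 2.80 in RNAi-labelled arrays and 3.16, 3.19 and 2.78 in controls, in the dimmest 25% of probe sets. The groups overlapped in ilys-2 and differed by -0.14 log2 (SE 0.14). The ilys-4 probe set gave 7.55, 7.37 and 7.95 in RNAi-labelled arrays and 7.40, 7.65 and 8.07 in controls, with replicate 3 the highest of each group.

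None of the 5 antibacterial factor genes passed the test. The abf-2 probe set, for a peptide that kills bacteria in the test tube, gave 3.98, 3.65 and 3.78 in RNAi-labelled arrays and 3.81, 3.84 and 3.78 in controls (-0.01 log2, 95% interval -0.24 to 0.23). The abf-1 probe set gave 3.96, 3.87 and 4.00 in RNAi-labelled arrays and 3.81, 3.95 and 3.96 in controls. The brightest of the family, abf-5, gave 7.09, 6.12 and 7.53 in RNAi-labelled arrays and 6.85, 6.82 and 7.32 in controls. Its difference of -0.08 log2 turned to 0.32 log2 without RNAi replicate 2, the lowest of the 6 arrays.

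None of the 8 infection response genes passed the test, and the groups overlapped in all but irg-7. This gene, needed for activating intestinal immunity, gave 10.37, 10.48 and 10.23 in RNAi-labelled arrays and 10.22, 10.22 and 10.19 in controls, a difference of 0.15 log2 (limma, unadjusted p = 0.124). The PMK-1-dependent genes irg-4, irg-5 and irg-6 encode proteins with a CUB-like domain, and none of them passed. For irg-4 the values were 9.76, 10.33 and 10.09 in RNAi-labelled arrays and 9.52, 10.16 and 10.15 in controls.

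For irg-5 they were 6.90, 7.12 and 7.44 in RNAi-labelled arrays and 6.94, 6.94 and 7.22 in controls. For irg-6 they were 4.16, 4.15 and 4.45 in RNAi-labelled arrays and 4.22, 4.38 and 4.14 in controls. The differences of irg-4, irg-5 and irg-6 were 0.12, 0.12 and 0.002 log2. For irg-8 the values were 10.29, 9.59 and 10.36 in RNAi-labelled arrays and 10.21, 9.83 and 10.14 in controls, with replicate 2 the lowest in both groups.

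The widest spread of any member was in irg-1, the standard reporter gene of the ZIP-2 response. Its values were 4.81, 4.81 and 6.69 in RNAi-labelled arrays and 4.52, 4.87 and 7.30 in controls. Replicate 3 was the highest array in each group, by 1.88 log2 above the mean of replicates 1 and 2 in RNAi-labelled arrays and by 2.60 log2 in controls. Between the groups it differed by -0.13 log2 with a 95% interval of -2.11 to 1.85 without the replicate block and of -0.52 to 0.26 with it. The sign turned with the arrays used, from -0.76 log2 without RNAi replicate 3 to 0.74 log2 without control replicate 3.

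The related irg-2 gave 4.33, 5.65 and 5.35 in RNAi-labelled arrays and 4.56, 5.02 and 6.05 in controls. In both groups replicate 1 was the lowest, while the highest was replicate 2 in RNAi-labelled arrays and replicate 3 in controls. The groups differed by -0.09 log2, with a 95% interval of -1.19 to 1.004 without the block and of -0.64 to 0.45 with it. The sign of the irg-2 difference also turned when single arrays were left out (-0.42 log2 without control replicate 1 and 0.32 log2 without control replicate 3).

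**Figure D2:**
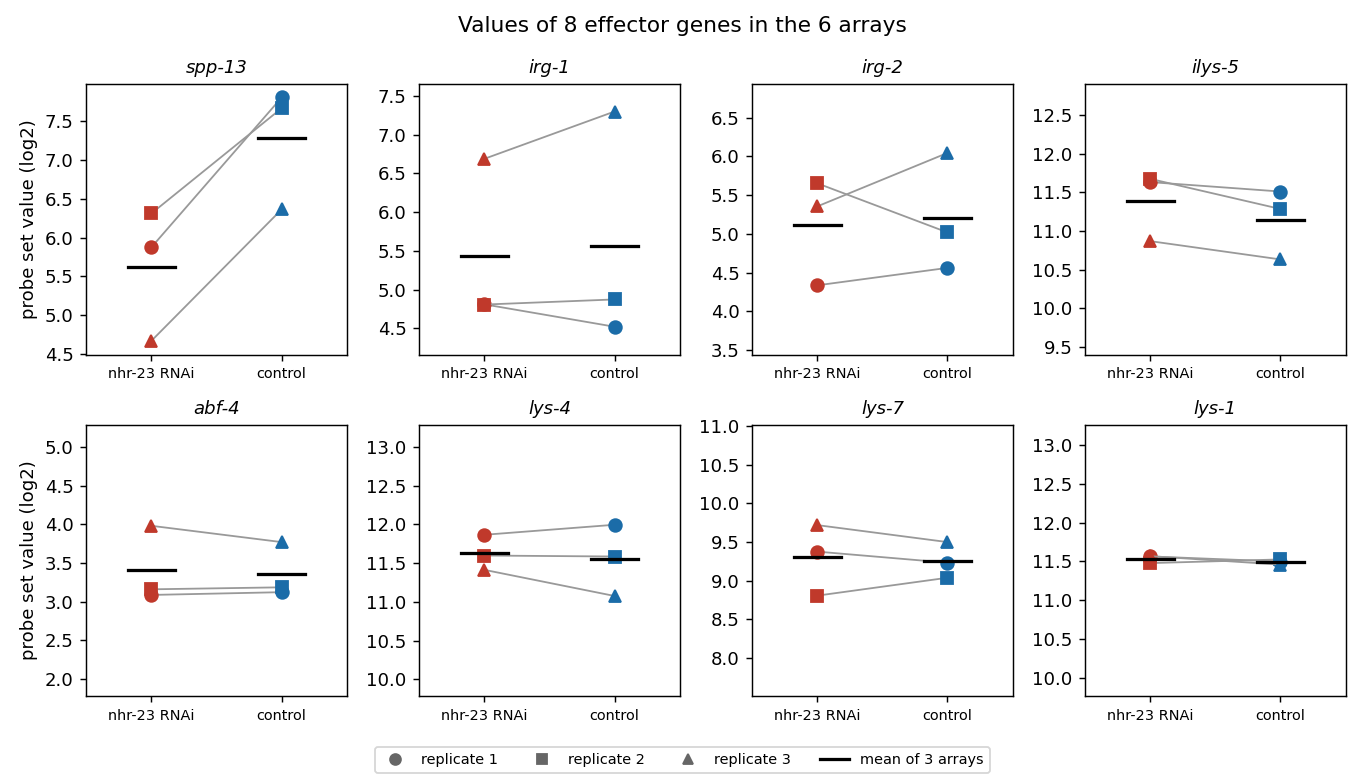
Log2 probe set values of 8 of the genes in each of the 6 arrays, with nhr-23 RNAi on the left and control on the right of each panel; lines join arrays of the same replicate number, bars are means of 3 arrays, and every panel spans the same number of log2 units. All RNAi-labelled values of spp-13 lie below all controls, while in irg-1, ilys-5 and abf-4 the replicate 3 arrays of both groups lie apart from the rest. The mean of abf-4 lies in the dimmest 25% of probe sets, where signal over background is not known.

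More of these genes passed a test by replicate number than by RNAi. The range between the fitted replicate means exceeded the size of the group difference in 38 of 47 genes, against 79.3% of all genes, a share near that of genes at large. Limma's test of the replicate number, in the fit with group and replicate, gave 18 of 47 members at an unadjusted p under 0.05, or 38.3%, against 12.7% of all genes. Without control replicate 1 the count was 11. This share was not particular to these families. In the lists described below, the same threshold was passed by 7 of 18 immune regulators, 12 of 14 other intestinal effectors, 5 of 11 gut proteases and 6 of 13 intestine markers. It was passed by 2 of 6 pharyngeal gland, 2 of 7 epidermis and 1 of 7 neuron markers, and by 0 of the muscle and germline markers. Adjusted over all probe sets 4 members passed, against 2.31% of all genes: irg-1 (limma, adjusted p = 0.00681), spp-13 (0.0104), ilys-5 (0.0290) and abf-4 (0.0359), the last named after its values were seen. The mean of abf-4, 3.39 log2, lay in the dimmest 25% of probe sets, below 3.63 log2, where signal over background is not known. Each replicate number holds 1 array of either group, and the numbers were taken to pair the arrays from these same values, so this test describes the arrays and is not independent of that choice.

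In these 4 genes replicate 3 was the number that lay apart. Relative to the mean of replicates 1 and 2 it was 2.24 log2 higher in irg-1 and 0.74 log2 higher in abf-4, and it was 1.40 log2 lower in spp-13 and 0.77 log2 lower in ilys-5. The values of abf-4 were 3.09, 3.16 and 3.98 in RNAi-labelled arrays and 3.12, 3.19 and 3.77 in controls. Replicate 3 lay at least 0.5 log2 above the mean of replicates 1 and 2 in both groups in 2 of 47 genes, irg-1 and abf-4, against 1.78% of all genes. It lay at least 0.5 log2 below in both groups in 2 of 47, spp-13 and ilys-5, against 1.92%. A range of at least 1 log2 together with an unadjusted p under 0.05 was found in irg-1, irg-2 and spp-13, 3 of 47 against 2.61% of all genes. In 35 of 47 genes replicate 3 deviated in the same direction in both groups, against 58.2% of all genes.

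Of the 18 genes past the unadjusted threshold, 13 had replicate 3 above the mean of replicates 1 and 2 in the fit, and 5 had it below. The 14 of them that did not pass after adjustment did not share 1 order of the replicate numbers. In irg-4 replicate 1 was the lowest of both groups, in irg-8 replicate 2 was, and in lys-4 and lys-7 the orders were those given above. By family the median of replicate 3 minus replicates 1 and 2 was -0.02 log2 for spp, 0.02 for lys, -0.14 for ilys, 0.08 for abf and 0.22 for irg, against -0.01 over all genes. Without 1 array it ran from -0.02 to 0.03 for spp (the highest without RNAi replicate 3), from 0.01 (without RNAi replicate 3) to 0.04 (without control replicate 3) for lys, from -0.17 to -0.08 (without RNAi replicate 3) for ilys, between 0.04 and 0.13 for abf, where leaving out control replicate 1 gave the lower and control replicate 2 the higher value, and from 0.19 to 0.33 for irg.

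**Figure D3:**
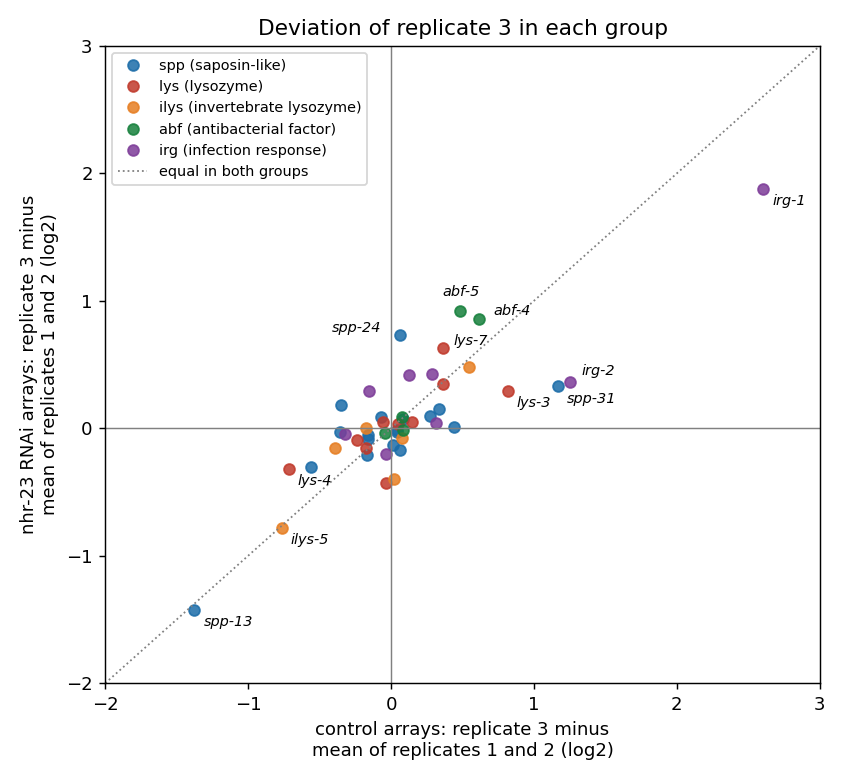
Deviation of replicate 3 from the mean of replicates 1 and 2, in log2 units, in nhr-23 RNAi arrays (vertical axis) and control arrays (horizontal axis), for each of the 47 genes coloured by family; the dotted line marks equal deviations. Both axes give irg-1 the highest deviation (1.88 and 2.60) and spp-13 the lowest (-1.43 and -1.38), and most other genes lie near the origin.

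Genes that lie side by side in the genome differed in part in their replicate 3 deviation in the clusters of lys genes. The table of WBcel235 places lys-1, lys-2 and lys-3 next to each other on chromosome V, with no other protein-coding gene between them. Replicate 3 minus replicates 1 and 2 was -0.003 log2 in lys-1, 0.36 log2 in lys-2 and 0.56 log2 in lys-3. The neighbours lys-4, lys-5 and lys-6 on chromosome IV gave -0.52, -0.23 and 0.10 log2 for the same difference. By limma's test of the replicate number, lys-2, lys-3, lys-4 and lys-6 had an unadjusted p under 0.05, while lys-1 and lys-5 did not. On the X chromosome spp-4 and spp-6 lie side by side, and they differed between RNAi-labelled and control arrays by 0.20 and 0.17 log2, neither past the test. Probe sets of lys-2, lys-3, lys-4 and lys-6, and 13 of the 47 in all, carry the suffixes for probe sets matching more than 1 transcript, so signal from near copies could not be separated.

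No regulator of these genes passed the test between the groups. Of 18 measured genes in a list of 21 regulators of the intestinal immune response, 11 had a higher mean with RNAi and 7 a lower one, with a median of 0.02 log2, and 0 passed after adjustment in either fit. The p38 kinase gene pmk-1 gave 7.22, 7.30 and 7.33 in RNAi-labelled arrays and 7.21, 7.38 and 7.43 in controls, and the intestinal GATA factor gene elt-2 gave 7.19, 7.36 and 7.27 in RNAi-labelled arrays and 7.15, 7.18 and 7.34 in controls. The exception at an unadjusted level was atf-7, the bZIP factor downstream of PMK-1, with 0.27 log2 (limma with the replicate block, unadjusted p = 0.0192, adjusted p = 0.719). By replicate number 7 of the 18 regulators had an unadjusted p under 0.05, and zip-2 passed after adjustment (limma, adjusted p = 0.0339). Values of zip-2 were 9.14, 9.62 and 9.90 in RNAi-labelled arrays and 9.13, 9.62 and 10.18 in controls. Whether zip-2 and irg-1 are linked here was not tested. Of 14 other intestinal effectors measured, 5 were higher and 9 lower, with a median of -0.08 log2, and 12 of the 14 had an unadjusted p under 0.05 in limma's test of the replicate number, against 12.7% of all genes. Gut proteases were higher in 9 of 11, with a median of 0.10 log2, and none passed in either fit after adjustment (limma), nor at an unadjusted p under 0.05 (0 of 11 in each).

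Markers of tissues moved in part with the groups. For each list below, the shares over all genes were 55.7% higher in the RNAi-labelled mean, and 5.9% at an unadjusted p under 0.05 with the block (limma, 3.62% without it). Intestine markers were higher in 10 of 13, with a list mean of 9.40 to 9.51 in RNAi-labelled arrays and 9.30 to 9.43 in controls. Of these, the gut esterase gene ges-1 (0.21 log2) and the ferritin gene ftn-1 (0.36 log2) had an unadjusted p under 0.05 with the block and 0 of 13 did without it. Like ilys-5, ftn-1 was lowest in replicate 3 of both groups, with 8.28, 8.74 and 7.48 in RNAi-labelled arrays and 8.10, 8.16 and 7.14 in controls. The list did not share 1 direction. Replicate 3 was also the lowest of both groups in ges-1, vha-6 and mtl-2, but the highest of both in ifb-2, ifc-2 and ifo-1. The list median of replicate 3 minus replicates 1 and 2 was 0.04 log2.

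Epidermis markers were lower in 5 of 7, 3 of them, dpy-7, dpy-5 and rol-6, at an unadjusted p under 0.05 with the block (1 without it), with a list mean of 8.70 to 9.54 in RNAi-labelled arrays and 9.35 to 9.66 in controls. Among them the furrow collagen gene dpy-7 gave 9.74, 9.74 and 8.11 in RNAi-labelled arrays and 11.08, 10.68 and 8.77 in controls. As in spp-13, replicate 3 was the lowest array of each group and every RNAi-labelled array lay below the control of its number. The groups overlapped in dpy-7, however. Of the 7 epidermis markers dpy-7 alone had both features. In dpy-5, bli-1, nhr-25 and elt-3, replicate 3 was the highest of the controls. Pharyngeal gland markers, phat-1 to phat-6, were lower in 6 of 6, all at an unadjusted p under 0.05 with the block (3 without it), with a list mean of 6.04 to 6.33 in RNAi-labelled arrays and 6.29 to 7.11 in controls. Neuron markers were lower in 7 of 7, with rab-3 and snt-1 at an unadjusted p under 0.05 with the block (1 without it), at 8.56 to 8.90 in RNAi-labelled arrays and 8.87 to 9.05 in controls. None of these passed after adjustment. Pharyngeal muscle markers were lower in 5 of 5 group means, and RNAi replicate 2 was the lowest array in each of them. The list mean was 8.25, 7.41 and 8.43 in RNAi-labelled arrays and 8.29, 8.48 and 8.14 in controls. Apart from RNAi replicate 2, the list means of the RNAi-labelled arrays lay within the range of the controls. Body wall muscle markers were higher in 4 of 5 (11.08 to 11.19 in RNAi-labelled arrays and 11.00 to 11.11 in controls), and germline markers in 3 of 4, with pgl-1 at an unadjusted p under 0.05 in both fits (6.56 to 6.89 in RNAi-labelled arrays and 6.54 to 6.62 in controls). The lowest mean of any marker gene was 4.30 log2, that of bli-1. The part of the tissue markers in the spp-13 difference was not tested.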

How the data were processed

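Total RNA (4 ug per sample) was labelled and hybridised to 6 arrays. The values deposited by the authors are log2 summaries, 1 per probe set and array. Per the submitters' processing notes the tools were MAS5, RMA and Partek, listed without version or role, so background correction and normalization are known only from the values, and signal over background is not known. Of 22625 probe sets 77 array controls were left out and 22548 tested, without a filter. Platform annotation named 1 gene for 20766 probe sets, several for 887 and none for 895, and symbols were updated through WBcel235. Probe sets were fitted with limma 3.58.1 in R 4.3.3 (lmFit, eBayes, 2-sided, group only) with Benjamini-Hochberg adjustment over 22548. Alternatives were the replicate block, quantile normalization, median centring, a brightness filter, other probe set choices, a trended eBayes and left-out arrays. Deviations from group means correlated between same-numbered arrays at 0.580, 0.167 and 0.573, so the numbers were taken to pair the arrays, on the values and not the labels. The fits were tested on simulated data.

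The members, gene lists and tests were chosen with earlier results of these data known. Genes named with values are members past an unadjusted p of 0.05 in either fit, the 3 most positive and 3 most negative differences, the brightest 2 of each family, members past 0.05 by replicate number with a range of at least 1 log2, and a set fixed by name, of which spp-3 and spp-5 had no probe set of their own. Listed regulators and markers past an unadjusted p of 0.05 in either fit could also be named. Others were named after their values were seen. A planned search of promoters for motifs was not run, because no sequence was used here.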

Additional observations from a re-analysis of the deposited data

How the results depend on the processing

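With the replicate block, members called at an adjusted p under 0.05 numbered 1, against 0 without it, members at an unadjusted p under 0.05 numbered 2, against 1, and probe sets called over the whole array numbered 2, against 0. The second nhr-23 probe set, at 2.72 log2, passed in that fit. The block with 1 pair left out was added after the data were seen. It gave 1, 96 and 37 probe sets without replicates 1, 2 and 3, with 0, 1 and 1 members called, 1, 3 and 2 members at an unadjusted p under 0.05, and nhr-23 differences of 3.01, 2.56 and 2.61 log2 that passed. Without the block, members at an unadjusted p under 0.05 numbered 2 with a trended eBayes, 0 without both replicate 1 arrays, 2 without both replicate 3 arrays, and 0 to 3 without single arrays. Left-out single arrays gave 11 to 20 members by replicate number. The abf median of replicate 3 minus replicates 1 and 2 was 0.70 without probe sets below the median brightness and 0.39 without probe sets of shared transcripts, and that of replicate 2 minus 1 was -0.50 without probe sets below the median brightness, resting then on fewer genes, and -0.17 to -0.015 without single arrays. Family medians between the groups otherwise moved by less than the spread between arrays. Of the 25 members named by rule, 7 at most changed sign under any alternative, none of them spp-13. The number of arrays limits the precision, and dim probe sets may be compressed by an unknown amount.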
